A study of Homo sapiens with 6 samples.

Results

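Epithelial junction and keratin genes encode the adhesion receptors, plaque proteins and intermediate filaments that hold epithelial cells together, with the regulators that maintain their expression. The members were chosen by symbol from a list of 49 names, and 48 of them were found among the 20115 genes of the authors' deposited table. The remaining member, AFDN, is listed there under its older symbol MLLT4 and is described but not counted among the 48. RNA came from MDA-MB-231, a human triple-negative breast cancer line, in 2 groups of 3 libraries: UBE3D knockdown cells, in which doxycycline induced short hairpins delivered by lentivirus, and control cells. Neither the hairpin of the control cells nor their doxycycline treatment is stated in the labels. Every sample carries the word pooled in the labels, no separate cultures are named, and p-values reflect only library-to-library spread, possibly technical. The files hold 1 comparison, knockdown over control, with a mean over all libraries, a log2 fold change, its standard error (SE) and an adjusted p per gene. No value per library was analysed here, so the depth behind a value is unknown and its only error is the SE. The deposited log2 fold changes are shrunken toward 0, and a gene was called changed at an adjusted p under 0.05.

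Adherens junctions join neighbouring cells through cadherins, which catenins couple to actin. Tight junctions seal the space between cells with claudins, occludin and tricellulin, and desmosomes anchor keratin filaments through desmosomal cadherins, plakoglobin, plakophilins and desmoplakin. Grainyhead-like, OVOL and ETS factors and the ESRP splicing factors maintain this programme in epithelia, and ZEB and SNAI factors repress it. MDA-MB-231 is known as a mesenchymal-like line in which much of this programme is low.

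UBE3D, the gene targeted by the hairpins, was lower in the knockdown cells by 1.74-fold (log2 fold change -0.80, SE 0.37, adjusted p = 0.00632) with 36.7 normalized counts on average, as the authors' deposited table gives it. In a Wald test on the shrunken change and its SE, that call was lost (adjusted p = 0.295). By its construction this test can only weaken calls here, so a call lost in it does not show that a gene is unchanged. The direction of the comparison was read from its title and from UBE3D itself. The fall of UBE3D is therefore no separate check of the knockdown. Markers of the line were abundant: the intermediate filament gene VIM had a mean of 7835 normalized counts (log2 fold change -0.34, SE 0.16, adjusted p = 0.0349) and the receptor tyrosine kinase gene AXL 11376 in the authors' deposited table. Of 6 such markers 4 were lower in the authors' deposited table, where 7.93% of all genes and 12.4% of those averaging at least 100 normalized counts were. VIM (adjusted p = 0.343) and CD44 (adjusted p = 0.264) lost the call in the Wald test. Of 9 blood, endothelial and fibroblast markers, 1 passed the threshold, the fibroblast gene LUM (1.42, SE 0.31, mean 68.3), and the 9 had means of 14.2 to 168 in the authors' deposited table. None of 7 luminal or basal markers passed, and their means were 9.74 to 758 in the authors' deposited table. Over all genes 12.5% passed the threshold. Sums per group were not analysed here, and the part of other cells in the results was not tested.

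More of the junction and keratin genes passed the threshold than of genes at large, and in both directions. The members were chosen with earlier results of these data known, so this excess is a description and not a test of the set. Of the 48 members, 5 were higher and 11 lower in knockdown cells and 32 did not pass, so 33.3% changed, against a background of 12.5% of all genes (4.62% higher and 7.93% lower) in the authors' deposited table. The share differed with abundance. At a mean of at least 100 normalized counts, 15 of 33 members passed, 4 higher and 11 lower, against 19.8% of the 9743 genes at that level (7.45% higher and 12.4% lower) in the authors' deposited table. Below it 1 of 15 members passed, CDH1, which was higher and at least 2-fold changed, against 5.71% of 10372 genes (1.96% higher and 3.75% lower, with 1.96% at least 2-fold changed), in the authors' deposited table. The median log2 fold change of the 48 members was -0.08, against -0.03 over all genes, and their median absolute change was 0.28 against 0.12. Their values ran from -1.32 for CXADR to 1.78 for CGN in the authors' deposited table. Changes of at least 2-fold were called for 5 members, CGN and CDH1 upward and CXADR, CLDN7 and EHF downward, against a background of 1.95% of all genes with the authors' mark for such a change in the authors' deposited table. In bulk RNA, fewer expressing cells and less RNA per cell cannot be told apart.

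**Figure D1:**
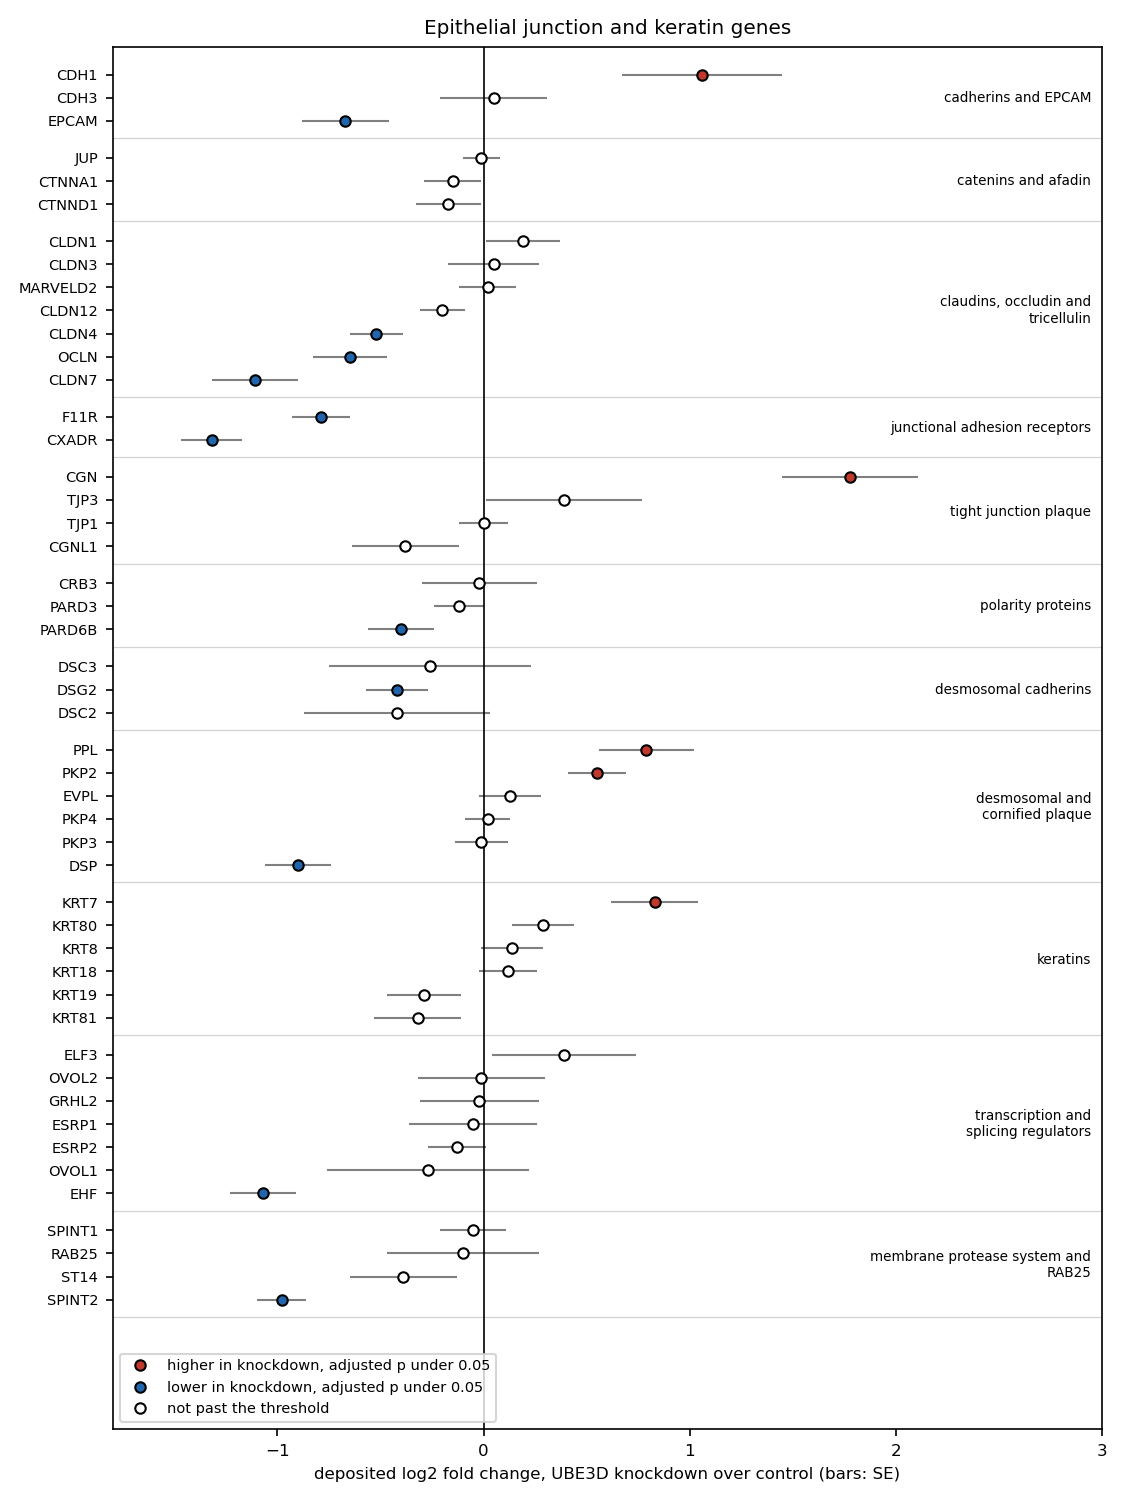
Deposited log2 fold change of the 48 members, UBE3D knockdown over control, on the horizontal axis, with bars of 1 SE, grouped by role. Filled red points (5) and blue points (11) passed the adjusted p threshold of 0.05 upward and downward, from CGN at 1.78 to CXADR at -1.32, and open points (32) did not.

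**Figure D2:**
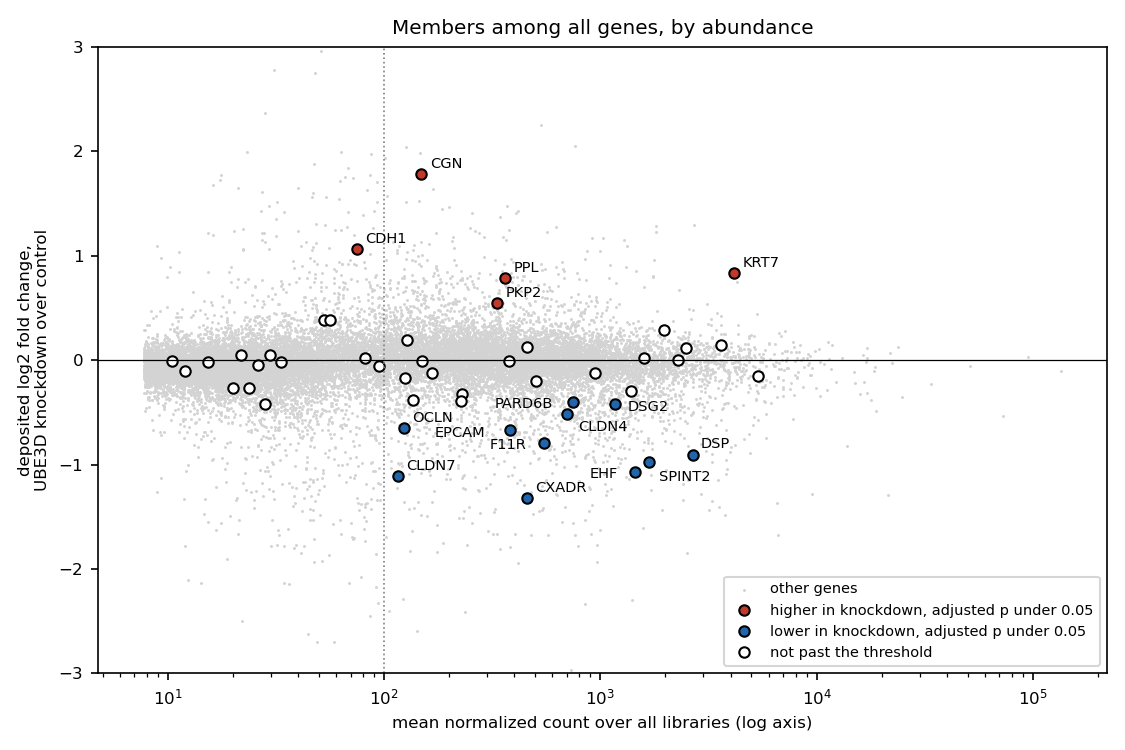
Deposited log2 fold change, knockdown over control, against the mean normalized count on a log axis, for the members (circles) and all other genes (grey); the dotted line marks a mean of 100, and 4 genes beyond a log2 fold change of 3 either way lie outside the axis. Of the 16 members that passed, CDH1 (mean 74.9) is the 1 to the left of the line.

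The classical cadherin of epithelia was among the members that rose. CDH1 (chr16:68737225-68835548, plus strand, hg38), which encodes E-cadherin, was 2.09-fold higher in knockdown cells (log2 fold change 1.06, SE 0.39, adjusted p = 0.00125), with 74.9 normalized counts on average, as the authors' deposited table gives it. At this low mean the call was lost in the Wald test on the shrunken values (adjusted p = 0.0966). The SE of 0.39 is among the wider ones here, as the members' SE ran from 0.09 to 0.49 in the authors' deposited table. CDH3, which encodes P-cadherin and lies 14.6 kb before CDH1 on chromosome 16, had 0.05 (SE 0.26, adjusted p = 0.821) at a mean of 29.6 in the authors' deposited table. The neighbours thus stood at different values, and their difference was not tested. EPCAM, an epithelial adhesion protein that binds claudin-7, fell by 0.67 in log2 units (SE 0.21, adjusted p = 0.000783), at a mean of 382 in the authors' deposited table. EPCAM and CDH1, both textbook epithelial surface markers, therefore moved in opposite directions.

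None of the cadherin-binding plaque members passed, while 12.5% of all genes and 19.8% of those averaging at least 100 normalized counts did. CTNNA1, the alpha-catenin that links cadherin complexes to actin, stood at -0.15 in log2 units (SE 0.14, adjusted p = 0.376) at a mean of 5359 in the authors' deposited table. JUP, which encodes plakoglobin, had -0.01 (SE 0.09, adjusted p = 0.952), from the authors' deposited table, and an approximate 95% interval of -0.19 to 0.17 on the shrunken scale. CTNND1, which encodes p120-catenin and stabilises cadherins at the membrane, had -0.17 (SE 0.16, adjusted p = 0.352) at a mean of 125 in the authors' deposited table. GENCODE 29 has a read-through gene, TMX2-CTNND1, over the same exons, so reads of CTNND1 may have been split or dropped in counting and its level is uncertain. AFDN, the actin-binding partner of nectins, had -0.15 (SE 0.11, adjusted p = 0.317) under the symbol MLLT4 in the authors' deposited table.

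The membrane proteins of tight junctions fell or did not pass, and none rose. Across all genes 7.93% were lower and 4.62% higher. CLDN7 (chr17:7259903-7263983, minus strand, hg38), the claudin that binds EPCAM, fell by 1.11 (SE 0.21, adjusted p = 1.14e-07), 2.16-fold lower, with 56.2 normalized counts per kb of exon, from the authors' deposited table. CLDN4 fell by 0.52 (SE 0.13, adjusted p = 8.59e-05) at a mean of 704, and OCLN, which encodes occludin, fell by 0.65 (SE 0.18, adjusted p = 0.000225) at a mean of 124 in the authors' deposited table. Both of those genes lie beside a member that did not pass. CLDN3 is 29.3 kb from CLDN4 on chromosome 7 and had 0.05 (SE 0.22, adjusted p = 0.816), at a mean of 21.8 in the authors' deposited table. MARVELD2, which encodes tricellulin, is 48.0 kb before OCLN on chromosome 5 and had 0.02 (SE 0.14, adjusted p = 0.948) at a mean of 81.9 in the authors' deposited table. CLDN1 (0.19, adjusted p = 0.306) and CLDN12 (-0.20, adjusted p = 0.145) did not pass in the authors' deposited table. CLDN12 overlaps the genes GTPBP10 and CDK14 on its own strand in GENCODE 29. CLDN7 overlaps the protein-coding gene AC003688.1 on its own strand and ELP5 on the other strand. Reads shared by genes on the same strand may have been split or dropped in counting. No source names the strand setting of the counting, so reads of pairs on opposite strands may not be separated either.

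Both members that are immunoglobulin-type receptors of the tight junction fell, where 7.93% of all genes were lower. CXADR (chr21:17512382-17593579, plus strand, hg38), the coxsackievirus and adenovirus receptor, fell by 1.32 (SE 0.15, adjusted p = 6.92e-19), 2.5-fold lower, with 456 normalized counts on average, as the authors' deposited table gives it, the largest fall and the lowest p among the members. F11R, which encodes junctional adhesion molecule A, fell by 0.79 (SE 0.14, adjusted p = 7.5e-08) at a mean of 547 in the authors' deposited table. It overlaps the protein-coding gene AL591806.3 on its own strand in GENCODE 29, so its reads may have been split or dropped in counting. In the cytoplasmic plaque of the tight junction, 1 of 4 members rose, where 4.62% of all genes were higher. CGN (chr1:151510510-151538692, plus strand, hg38), which encodes cingulin, rose by 1.78 (SE 0.33, adjusted p = 6.29e-08), 3.45-fold higher in knockdown cells, at a mean of 149 in the authors' deposited table. Its paralog CGNL1, paracingulin, had -0.38 (SE 0.26, adjusted p = 0.0835) at a mean of 136 in the authors' deposited table. The scaffold TJP1, which encodes ZO-1, had 0.00 (SE 0.12, adjusted p = 0.997) at a mean of 2290, with an approximate 95% interval of -0.23 to 0.23 on the shrunken scale, and TJP3, ZO-3, had 0.39 (SE 0.38, adjusted p = 0.133) at a mean of 52.8, in the authors' deposited table. Of the apical polarity members, PARD6B, the partner of atypical protein kinase C, fell by 0.40 (SE 0.16, adjusted p = 0.00873) at a mean of 751 in the authors' deposited table, a call lost in the Wald test (adjusted p = 0.138). The scaffold gene PARD3 (-0.12, adjusted p = 0.465) and CRB3 (-0.02, adjusted p = 0.933), a Crumbs protein, did not pass in the authors' deposited table.

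Promoter sequences show whether the members that moved share the E-box CAGGTG, the core word bound by ZEB and SNAI repressors. RefSeq windows of GRCh38.p14, from 250 bases before to 50 after a start, were matched for 25 of the 49 names, AFDN among them and taken as not past, and the word was searched on both strands as CAGGTG or CACCTG. It was present at a start of 14 of the 25 members (56.0%), against 24.9% of the 13933 genes of the gene table with such a window. Of the 6 lowered members with a window, 4 hold it (CLDN7, OCLN, DSP and DSG2), and CLDN4 and EHF do not. Of the 18 that did not pass, 10 hold it, and CGN, the 1 raised member with a window, does not. The raised CDH1, PKP2, PPL and KRT7 and the lowered CXADR, EPCAM, F11R, PARD6B and SPINT2 had no window. Over all genes with a window, 26.1% of 1189 lowered and 25.1% of 726 raised genes hold the word. Of the 12018 genes that did not pass, 24.8% hold it. The palindrome AACCGGTT, bound by grainyhead-like factors, was in none of the 25 and in 0.23% of the genes of the table, and TATAAA, searched on both strands, was in 2 of 25, against 10.7%. The windows of 3 lowered members with the word and of CGN without it are shown, each 5′ to 3′ on the strand of its gene, with CAGGTG and CACCTG in capitals. They lie at chr17:7262429-7262728 on the minus strand (CLDN7), and at chr5:69492540-69492839 (OCLN), chr6:7541421-7541720 (DSP) and chr1:151511137-151511436 (CGN) on the plus strand.
CLDN7: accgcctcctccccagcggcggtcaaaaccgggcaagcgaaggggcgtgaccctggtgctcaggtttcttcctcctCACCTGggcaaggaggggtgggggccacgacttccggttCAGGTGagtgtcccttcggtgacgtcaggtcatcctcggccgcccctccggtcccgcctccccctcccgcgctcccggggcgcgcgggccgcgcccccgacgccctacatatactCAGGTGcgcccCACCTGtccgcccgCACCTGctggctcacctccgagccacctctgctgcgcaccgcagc
OCLN: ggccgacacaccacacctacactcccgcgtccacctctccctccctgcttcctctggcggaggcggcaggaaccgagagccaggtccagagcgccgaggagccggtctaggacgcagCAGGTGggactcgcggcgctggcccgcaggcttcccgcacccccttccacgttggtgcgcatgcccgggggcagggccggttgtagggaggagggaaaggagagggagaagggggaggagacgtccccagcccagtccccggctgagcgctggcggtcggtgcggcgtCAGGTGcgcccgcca
DSP: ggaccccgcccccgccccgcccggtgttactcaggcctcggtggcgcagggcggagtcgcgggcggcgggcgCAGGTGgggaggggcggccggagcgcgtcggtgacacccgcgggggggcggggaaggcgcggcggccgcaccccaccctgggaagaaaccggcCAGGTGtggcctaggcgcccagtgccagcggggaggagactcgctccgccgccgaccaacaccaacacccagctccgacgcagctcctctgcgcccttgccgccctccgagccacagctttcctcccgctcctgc
CGN: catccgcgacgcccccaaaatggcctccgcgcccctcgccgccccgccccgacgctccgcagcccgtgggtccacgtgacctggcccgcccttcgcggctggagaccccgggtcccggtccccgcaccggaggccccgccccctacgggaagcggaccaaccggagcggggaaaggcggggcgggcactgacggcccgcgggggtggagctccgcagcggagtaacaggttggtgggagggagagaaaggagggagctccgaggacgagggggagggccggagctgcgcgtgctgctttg
The CLDN7 window holds 5 matches, the OCLN and DSP windows 2 each, and the CGN window none. Windows at another start, not shown, hold 0 matches for CLDN7 (chr17:7263164-7263463) and 1 for OCLN (chr5:69492297-69492596). The window of CRB3, which did not pass, also holds 5. A match is a description of letters and not a bound site. Among the repressors themselves, ZEB1 was lower (log2 fold change -0.35, SE 0.11, adjusted p = 0.00209, with 0.0281 in the Wald test and 0.0545 in that test after a shift to a median of 0), while ZEB2 had 0.14 (adjusted p = 0.403), SNAI1 -0.09 (adjusted p = 0.676) and SNAI2 -0.28 (adjusted p = 0.143) in the authors' deposited table.

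Desmosome members also went both ways. DSP, which encodes desmoplakin, the plaque protein that binds keratin filaments, fell by 0.90 (SE 0.16, adjusted p = 6.74e-08) with 2669 normalized counts on average, as the authors' deposited table gives it. DSG2, the desmoglein of simple epithelia, fell by 0.42 (SE 0.15, adjusted p = 0.00393) at a mean of 1169 in the authors' deposited table, a call lost in the Wald test (adjusted p = 0.073). The desmocollin genes DSC2 (-0.42, SE 0.45) and DSC3 (-0.26, SE 0.49) had means of 28.0 and 23.7 and did not pass in the authors' deposited table. DSC2 had the same log2 fold change as DSG2, with an SE of 0.45 against 0.15. PKP2, a plakophilin of the desmosomal plaque, rose by 0.55 (SE 0.14, adjusted p = 6.49e-05) at a mean of 333 in the authors' deposited table. Its relatives PKP3 (-0.01, SE 0.13) and PKP4 (0.02, SE 0.11) did not pass, with adjusted p of 0.977 and 0.905 in the authors' deposited table. PPL, which encodes periplakin, a plakin of the desmosome and cornified envelope, rose by 0.79 (SE 0.23, adjusted p = 0.000269) at a mean of 364 in the authors' deposited table. EVPL, its binding partner envoplakin, had 0.13 (SE 0.15, adjusted p = 0.476) at a mean of 456 in the authors' deposited table. Within the plakin family, desmoplakin was therefore lower and periplakin higher in the same libraries.

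Of the 6 keratins 1 passed (16.7%), against 12.5% of all genes and 19.8% of those averaging at least 100 normalized counts. The keratin that passed was the most abundant member per exon length. KRT7, a type II keratin of simple epithelia, rose by 0.83 (SE 0.21, adjusted p = 5.01e-05), 1.78-fold higher in knockdown cells, with 4145 normalized counts on average, as the authors' deposited table gives it. Divided by the length of its exons in GENCODE 29, its level was 2363 normalized counts per kb, above KRT18 (1240), KRT19 (999), KRT8 (792), KRT80 (506) and KRT81 (119) on the same scale. The merged exons of KRT8 measure 4581 bases, against 1754 for KRT7, and a level per kb falls as that length grows. VIM stood at 4194 per kb, above each of the keratins. KRT8 and KRT18, the filament partners of simple epithelia, had log2 fold changes of 0.14 (SE 0.15, adjusted p = 0.428) and 0.12 (SE 0.14, adjusted p = 0.492) in the authors' deposited table. Their approximate 95% intervals on the shrunken scale, -0.15 to 0.44 and -0.15 to 0.39, stand beside 0.42 to 1.24 for KRT7, which overlaps that of KRT8 only, and the difference was not tested. KRT19 had -0.29 (SE 0.18, adjusted p = 0.0985) and KRT80 0.29 (SE 0.15, adjusted p = 0.0528) in the authors' deposited table. KRT81, a hair keratin, had -0.32 (SE 0.21, adjusted p = 0.101) in the authors' deposited table, 33.7 kb from KRT7 on chromosome 12. Its near-identical neighbour KRT86 overlaps both KRT81 and KRT7 in GENCODE 29 and had -0.01 (adjusted p = 0.98) in the authors' deposited table, and KRT8 and KRT18 have many processed pseudogenes, so the values of these keratins are uncertain to the extent that reads are shared.

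**Figure D3:**
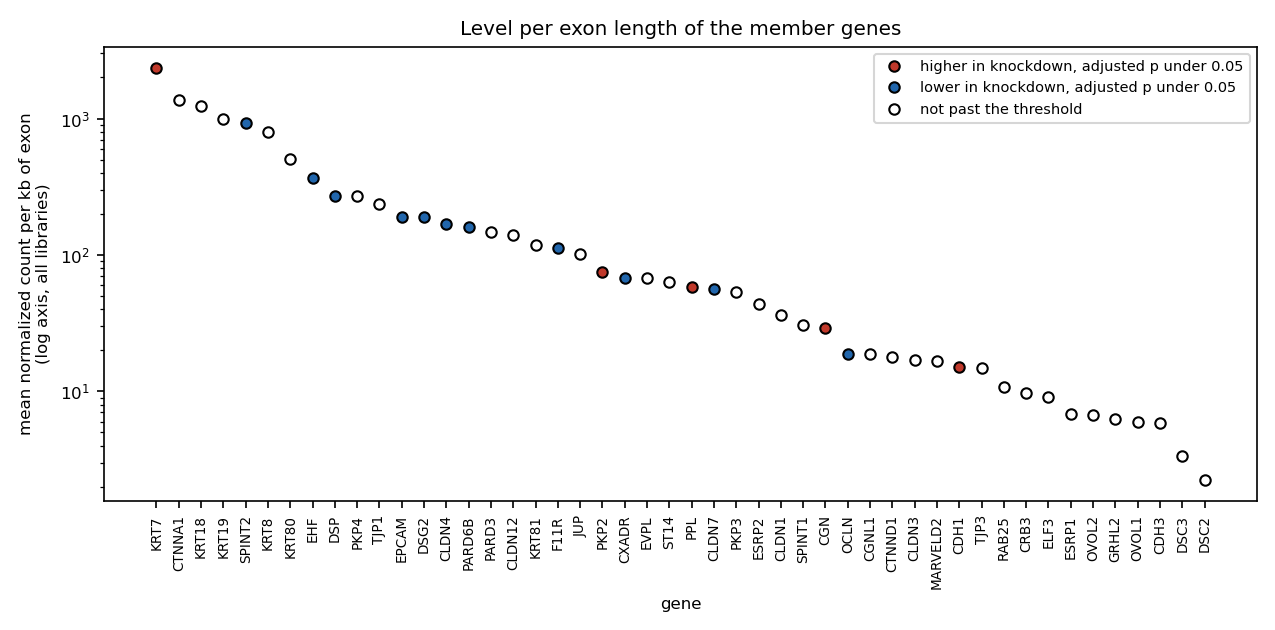
Mean normalized count per kb of exon over all libraries, on a log axis, for the 48 members in falling order, with the same colours for calls. KRT7 stands highest at 2363 and DSC2 lowest at 2.24; the 16 members that passed range from KRT7 down to CDH1 at 15.0.

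Among the transcription and splicing regulators, 1 of 7 passed (14.3%), against 12.5% of all genes. EHF (chr11:34621093-34661057, plus strand, hg38), an epithelial ETS factor, fell by 1.07 (SE 0.16, adjusted p = 1.42e-11), 2.10-fold lower, with 1453 normalized counts on average, as the authors' deposited table gives it. Its relative ELF3 had 0.39 (SE 0.35, adjusted p = 0.122) at a mean of 56.2 in the authors' deposited table. GRHL2, which maintains the epithelial state and CDH1 expression, had -0.02 (SE 0.29, adjusted p = 0.94) at a mean of 33.5 in the authors' deposited table. The OVOL repressors of mesenchymal genes did not pass either, with OVOL1 at -0.27 (adjusted p = 0.208, mean 20.0) and OVOL2 at -0.01 (SE 0.31, adjusted p = 0.972, mean 10.5) in the authors' deposited table. ESRP1, an epithelial splicing factor, had -0.05 (SE 0.31, adjusted p = 0.815) at a mean of 26.2, and ESRP2 had -0.13 (SE 0.14, adjusted p = 0.468) at a mean of 166 in the authors' deposited table. Per kb of exon, 10 members lay at or under the T cell gene CD3E, the highest of 3 blood markers at 14.8: CDH3, CRB3, DSC2, DSC3, ESRP1, GRHL2, OVOL1, OVOL2, ELF3 and RAB25. None of these 10 passed, and the 16 changed members were among the 38 above that level. The share of all genes that passed at or under it was not analysed here, and of genes with a mean under 100, 5.71% passed. CDH1, at 15.0 per kb, lay just above CD3E. The SE of the 10 ran from 0.26 for CDH3 to 0.49 for DSC3 and OVOL1 in the authors' deposited table.

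In the group of membrane protease genes and RAB25, 1 of 4 members passed (25%), against 12.5% of all genes. SPINT2, which encodes hepatocyte growth factor activator inhibitor 2, fell by 0.98 (SE 0.12, adjusted p = 5.12e-16), 1.97-fold lower, with 1680 normalized counts on average, as the authors' deposited table gives it. In GENCODE 29, SPINT2 overlaps the protein-coding gene AC011479.1 on its own strand, so its reads may have been split or dropped in counting. The related inhibitor SPINT1 had -0.05 (SE 0.16, adjusted p = 0.816) at a mean of 94.3, and ST14, which encodes their target protease matriptase, had -0.39 (SE 0.26, adjusted p = 0.0758) at a mean of 226 in the authors' deposited table. The inhibitors thus stood at different values, and that difference was not tested. RAB25, an epithelial trafficking GTPase, had -0.10 (SE 0.37, adjusted p = 0.554) at a mean of 12.0 in the authors' deposited table.

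The 3′ UTRs were searched for 2 words, GATTGAA and CTTATCT, already known from earlier results of these data to be more frequent among lowered and raised genes. In the longest 3′ UTR of GENCODE 29, GATTGAA was present in 6 of the 48 members (12.5%), EPCAM, CLDN1, CXADR, DSC2, DSP and PKP4. The share was 9.49% of all 16178 genes with such a UTR, and 11.3% of the 9127 of these averaging 100 normalized counts or more. Of the 11 lowered members 3 hold it (27.3%), against 27.6% of all 1156 lowered genes at that abundance, and no raised member does. The other 8 lowered members, CLDN7, SPINT2 and F11R among them, do not hold it in that UTR. CTTATCT was present in 5 members (10.4%), against 10.9% of those 16178 genes and 12.5% of those 9127. F11R, which fell, is 1 of the 5 members. None of the 5 raised members holds CTTATCT, against 24.9% of 666 raised genes with a mean of at least 100. CDH1, 1 of the raised members, lies below that level at a mean of 74.9. Whether either word belongs to a hairpin was not tested, since no hairpin sequence was at hand. The 30 bases around the first site are shown for the 3 lowered members, 5′ to 3′ on the plus strand of GRCh38, with the word in capitals, at chr21:17566594-17566623 (CXADR), chr6:7586002-7586031 (DSP) and chr2:47386926-47386955 (EPCAM).
CXADR: tgacacttataGATTGAAatttcctaattt
DSP: aatatagccatGATTGAAatcaaatagtaa
EPCAM: aactgatttgtGATTGAAagctgcctttct
CXADR, with the largest fall, holds the word 2 times in a 3′ UTR of 4408 bases, and the others hold it 1 time each.

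Readthrough, the transcription that continues past a gene's end, was deposited for 5 members, and none of these downstream-of-gene (DoG) regions passed, against a background of 28.8% of 2014 regions (12.7% higher and 16.1% lower). None carried the authors' mark for a change of at least 2-fold, against 1.99% of regions. The DoG region of CXADR stood at -0.10 in log2 units (SE 0.14, adjusted p = 0.558) with 178 normalized counts on average, in the authors' deposited table of such regions. Set against the fall of its host gene, the region was higher by 1.22 (SE 0.20, approximate 95% interval 0.83 to 1.62, adjusted p = 5.77e-09 over the 5 regions, normal quantile of the difference over its combined SE). The region's signal thus did not follow the 2.5-fold fall of the gene. BTG3 lies within 10 kb past CXADR on the other strand and had 0.13 (SE 0.13, adjusted p = 0.436) in the authors' deposited table. The part of that gene's reads in the region was not tested. For PPL the order was opposite: its DoG region had -0.13 (SE 0.12, adjusted p = 0.346) at a mean of 455 in the authors' deposited table, and lay 0.92 below the raised host (difference -0.92, SE 0.26, adjusted p = 0.00079). UBN1, on the other strand within 10 kb past PPL, had 0.02 (SE 0.10, adjusted p = 0.939) at a mean of 870 in the authors' deposited table. The KRT7 region had 0.21 (SE 0.22, adjusted p = 0.302) at a mean of 163 in the authors' deposited table, and its difference from the host, -0.63 (SE 0.30), did not pass (adjusted p = 0.0627). KRT86 lies within 10 kb past KRT7 on the same strand (-0.01, SE 0.20, mean 43.5 in the authors' deposited table), so strand cannot separate its reads from the region's. The regions of MARVELD2 (0.01, SE 0.17) and CRB3 (-0.13, SE 0.24) had means of 57.4 and 52.0, and like their hosts did not pass, with adjusted p of 0.978 and 0.551 in the authors' deposited table. In each of the 3 members whose host gene changed, the region lay nearer to 0 than the host. These 3 were taken because their hosts had passed the threshold, which favours hosts farther from 0, so this order is a description only. Region and host values are shrunken, come from the same libraries and may have been scaled separately, so the p-values of the differences are approximate.

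**Figure D4:**
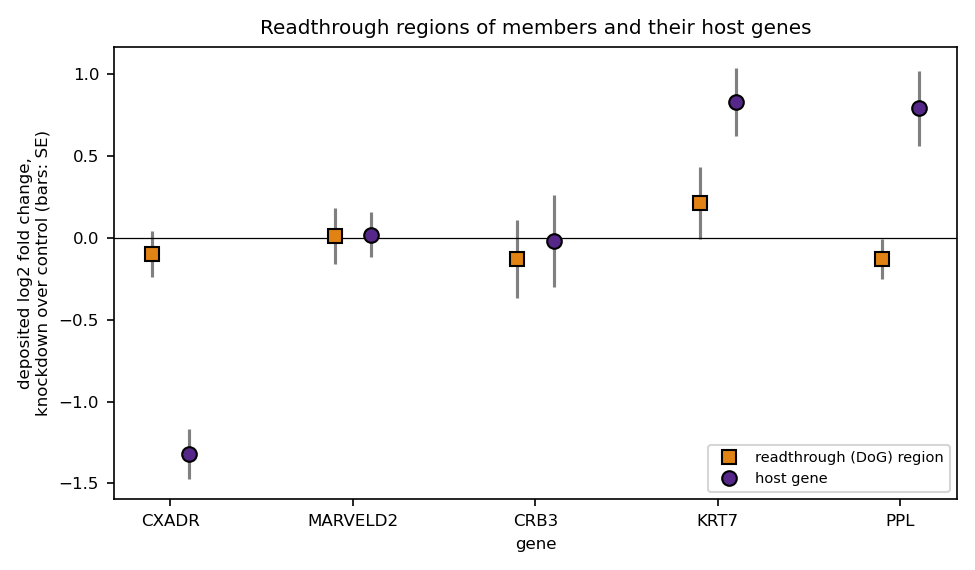
Deposited log2 fold change, knockdown over control, of the DoG region (squares) and of its host gene (circles) for the 5 members with a region, with bars of 1 SE. The CXADR region stands at -0.10 above a host at -1.32, and the PPL and KRT7 regions stand at -0.13 and 0.21 below hosts at 0.79 and 0.83.

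Other genes of the same structures, from a list that excludes the members, changed in both directions as well. Of 122 such genes found in the table, 12 were higher and 14 lower and 96 did not pass, and the median of their log2 fold changes was -0.05. The 26 that passed make 21.3%, against the 12.5% of all genes (4.62% higher and 7.93% lower). This list too was chosen with earlier results of these data known. By group, 46.2% of desmosome and hemidesmosome genes passed, and 30% each of polarity and adherens junction genes. The median of the mean counts in these groups was 372, 447 and 295. Of all genes averaging at least 100 normalized counts, 19.8% passed. The shares were 13.8% for epithelial regulators and surface genes, 10.5% for tight junction genes and 9.52% for keratins. Their medians were 46.4, 97.8 and 17.0, and 5.71% of all genes with a mean under 100 passed. In the Wald test 5 were higher and 6 lower, and the share of all genes in that test was not analysed here. The 15 calls lost there are those of MPP5, PRKCZ, LLGL2, DLG3, DLG5, PERP, ITGB4, CD151, DSG3, EPPK1, CTNNA2, NECTIN1, NECTIN2, GRHL1 and KRT15. In the authors' deposited table, the hemidesmosomal and desmosomal genes had 5 of 13 lowered, and the desmosomal cadherin DSG3 had -0.64 (SE 0.76, mean 28.5). ITGA6, the integrin alpha subunit of hemidesmosomes, fell by 1.37 (SE 0.16, adjusted p = 1.92e-16), and its partner ITGB4 fell by 0.34 (SE 0.12, adjusted p = 0.00613) in the authors' deposited table. The tetraspanin CD151 (-0.34) and PERP (-0.50), a desmosomal membrane protein, were lower and the plakin-family gene EPPK1 was higher (0.76, SE 0.47) in the authors' deposited table. Of this group only the call of ITGA6 was kept in the Wald test, where adjusted p was 0.072 for ITGB4, 0.0656 for CD151, 0.108 for PERP, 0.68 for EPPK1 and 1 for DSG3. Keratins outside the member list had a median of 17.0 over their mean normalized counts, and 2 of 21 passed: KRT17 rose by 2.75 (SE 0.56, adjusted p = 2.59e-08) at a mean of 48.1, and KRT15 fell by 1.77 (SE 0.60, adjusted p = 0.000221) at a mean of 31.8, in the authors' deposited table. KRT17 has close paralogs and pseudogenes, so its value is uncertain to that extent.

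Of 19 further tight junction genes none rose and 2 fell, the adhesion genes CLMP (-1.52, SE 0.18) and ESAM (-0.64, SE 0.17), both relatives of CXADR, in the authors' deposited table. JAM2 (-0.01, SE 0.26, adjusted p = 0.976) and JAM3 (0.28, SE 0.29, adjusted p = 0.22), the relatives of F11R, did not pass in the authors' deposited table. Of 20 polarity genes 4 rose and 2 fell. ERBIN, listed as ERBB2IP, fell by 1.19 (SE 0.15, adjusted p = 1.58e-14) and DLG5 by 0.30 (SE 0.10) in the authors' deposited table. LLGL2, the epithelial lethal giant larvae gene, had 0.75 (SE 0.30), PRKCZ, an atypical protein kinase C, 0.41 (SE 0.18), DLG3 0.39 (SE 0.13) and MPP5, the Crumbs adaptor, 0.30 (SE 0.14), all higher in the authors' deposited table. Of the polarity genes only the call of ERBIN was kept in the Wald test, where adjusted p was 0.146 for LLGL2, 0.224 for PRKCZ, 0.0519 for DLG3, 0.322 for MPP5 and 0.0571 for DLG5. Of 20 adherens junction genes 3 rose and 3 fell. PLEKHA7, which binds p120-catenin, rose by 0.76 (SE 0.15, adjusted p = 5.73e-07), the mesenchymal cadherin CDH11 by 0.61 (SE 0.15) and NECTIN2, listed as PVRL2, by 0.28 (SE 0.11), and CDH24 fell by 0.60 (SE 0.17), NECTIN1, listed as PVRL1, by 0.52 (SE 0.29) and CTNNA2 by 0.64 (SE 0.78), in the authors' deposited table. CDH2, which encodes N-cadherin, had -0.16 (adjusted p = 0.444) at a mean of 75.1 in the authors' deposited table. Of 29 epithelial regulators and surface genes 3 rose. The receptor gene ERBB3 rose by 0.90 (SE 0.18), GRHL1 by 0.74 (SE 0.32) and KLF4 by 0.73 (SE 0.17), in the authors' deposited table.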

How the data were processed

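Total RNA of 3 UBE3D knockdown and 3 control libraries of MDA-MB-231 cells was depleted of ribosomal RNA and sequenced as stranded read pairs, per the labels' protocols. Tools listed in the submitters' processing notes are DESeq2, STAR 2.5.2b and cutadapt 1.8.1, with hg38 as the build. Annotation, counting tool, strand setting, shrinkage and DoG calling: not given in the sources used here. Per the file headers, the deposited tables give a mean normalized count over libraries, treated as signal, a log2 fold change with its SE on the log2 scale, and p-values with their adjustment. Adjusting the deposited p-values by Benjamini-Hochberg over the 20115 genes or 2014 DoG regions returned the deposited adjusted values. The authors' log2 changes divided by SE were smaller than their p-values imply in each of 20112 genes compared, so they are shrunken. Depth is unknown.

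Every member is named once, with fuller values for those past the threshold and a few set markers, and of the other genes those past it, except 1 that is not reported here. The members and lists were chosen with earlier results of these data known. Region and host were compared by the difference over the combined SE. The design had named CXADR alone, and the other 4 regions follow the same rule. Of 124 other symbols, 6 were matched by older names. Levels per kb use the merged exons of the GENCODE 29 basic set. Steps were tested on simulated data. Python 3.11.15, numpy 2.4.6, pandas 2.3.3, scipy 1.17.1 and matplotlib 3.10.9 were used. Alternatives were other thresholds, a minimum mean of 100, a minimum change of 1.5-fold, Wald tests on the shrunken values and a shift to a median of 0.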

Additional observations from a re-analysis of the deposited data

How the results depend on the processing

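No paired analysis was possible because the files hold no value per library; for the same reason no replicate could be left out, and neither was run. The counts of 5 raised and 11 lowered members stayed at 4 to 6 and 8 to 14 under the 6 alternatives run. At a minimum mean of 100 with p-values adjusted again, CDH1 dropped out and KRT80 (adjusted p = 0.0336) and ST14 (0.0494) passed. The Wald test on shrunken values lost CDH1, PARD6B and DSG2, and with changes shifted to a median of 0 they gave adjusted p of 0.0826, 0.196 and 0.113. At a threshold of 0.10, CGNL1, KRT19, KRT80 and ST14 passed. With the shift to a median of 0, values near 0 that had not passed changed sign: JUP (0.01), CRB3 (0.00), PKP3 (0.02), GRHL2 (0.01) and OVOL2 (0.02). Among the other junction and epithelial genes, the 12 raised became 5 in the Wald test and 6 with the shift, and the 14 lowered became 6 in both and 9 at a minimum of 1.5-fold; the Wald test can only weaken calls here by its construction, and a minimum size removes small changes. The CXADR region (-0.10, and -0.09 with the shift), its difference from the host (1.22 and 1.21), the counts of members with each 3′ UTR word (6 and 5, or 7 and 5 over all 3′ UTRs, where EHF is added) and with CAGGTG (14, or 11 on the strand of the gene) changed no call. Depth per library is unknown, so no floor can be given for the rarest members.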
